A study of Saccharomyces cerevisiae with 16 samples.

Results

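Deletions of 3 genes of budding yeast (*Saccharomyces cerevisiae*) were pooled and set against wild type, to ask which genes changed ribosome footprints in the same direction in every deletion strain. The comparison took all 7 deletion footprint libraries (3 of can1Δ, 2 of rpl22aΔ and 2 of tor1Δ) and the 3 wild-type footprint libraries, which is 10 of the 16 libraries of the series. The mean of the 3 strains, each with equal weight, was compared with the wild-type mean. Of 5574 listed features (a gene, or a merged group of near-identical genes), 4900 had enough reads to be tested. Every strain is BY4741, a laboratory haploid of mating type a that also carries markers disabling HIS3, LEU2, MET17 and URA3. Cultures grew in YPD, a rich glucose medium, to an OD600 of 0.5, and cycloheximide, which stalls ribosomes, was in the buffer used for the lysates. The can1Δ strain lacks the plasma membrane arginine permease, rpl22aΔ lacks one of a pair of genes for ribosomal protein L22, and tor1Δ lacks a kinase of the growth-controlling complex TORC1. Alongside these, 6 mRNA libraries came from the same kinds of lysate (wild type 2, can1Δ 2, rpl22aΔ 1 and tor1Δ 1). It is not given in the labels whether replicates came from different cultures, or whether a strain is 1 clone, and p-values therefore cover only the spread among the libraries at hand.

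Ribosome footprints are the pieces of mRNA that a translating ribosome shields from nuclease, and their level per gene follows both the amount of the mRNA and how densely it is translated. All of these deletions are known for lengthening the replicative lifespan of yeast mother cells, the number of daughters a mother can bud. In rich medium such cells ferment glucose, make their proteins with the help of chaperones set by the heat shock factor Hsf1, and keep starvation and stress genes low under TORC1 and its nutrient signals. As libraries come from whole cultures, fewer cells of a kind and less RNA per cell cannot be told apart.

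The libraries held between 2.52 and 8.70 (in units of 1e6 reads) for footprints and between 7.65 and 26.6 for mRNA. The deleted genes were nearly empty in their own strains, with 1, 2 and 1 footprint reads of CAN1 in can1Δ, 5 and 17 of RPL22A in rpl22aΔ, and 2 and 1 of TOR1 in tor1Δ. They are set apart from the pooled and same-sign calls and the gene lists below. Counts for single strains, of signs and of strain differences include them. Reads of LEU2 and URA3 were at 0 in every library, and MET17 had 0 or 1. HIS3, whose marker in this background is known as a partial deletion, had 100 to 1042 footprint reads and 267 to 2099 mRNA reads per library. The a-specific genes STE2, STE6, BAR1 and AGA2 were read in every library, whereas MFA1 and MFA2, also a-specific, were listed at 0 throughout. The α-specific STE3 had 0 to 5 footprint reads per library. All levels are deposited RPKM (reads per kilobase of listed length per 1e6 reads) after scaling between libraries. The listed length was 100 bases shorter than the coding length for 5408 of 5456 single genes, so very short genes keep little of it. Fold changes were computed from log2(RPKM + 1), so those of low genes are understated, and the error after ± is a standard error. A call is a Benjamini-Hochberg adjusted p under 0.05 over all 4900 features in limma.

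A small set of genes was called, with chaperones, arginine breakdown genes and a few mitochondrial enzymes among the lower. Arginine synthesis genes were among the higher, mostly with opposite signs in different strains. Apart from the deleted genes, limma called 28 features higher (0.571% of those tested) and 34 lower (0.694%) in the mean of the deletion strains. With the deposited RPKM left unscaled the median of all genes shifted from 0.01 to 0.08, and the split became 58 higher and 23 lower. With the deleted genes the calls were 65 (1.33%). Of the 62 without them, 16 higher (0.327%) and 28 lower (0.571%) had the same sign in all 3 strains, 44 in all (0.898%). The other 18 had opposite signs in different strains. Among all features tested 1539 had 1 sign in all 3 strains (31.4%), 790 above and 749 below wild type (16.1% and 15.3%); the 3 strains share the wild-type libraries, so their signs are not independent. Each of the 7 deletion libraries was outside the range of the 3 wild-type libraries, on 1 side, for 67 features (1.37%), 28 above and 39 below (0.571% and 0.796%). Features that met all of these conditions, called, same sign and 7 of 7 libraries, were 16 lower (0.327%) and 4 higher (0.0816%).

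The pooled calls drew mostly on one strain. All 44 same-sign calls were also called in rpl22aΔ on its own, where 478 features were higher (9.76%) and 464 lower (9.47%). Only 3 of the 44 were called in can1Δ alone, DUR12, CAR2 and ARG4, in a comparison with 7 features higher (0.143%) and 4 lower (0.0816%). None of the 44 was called by limma in tor1Δ alone, where 1 feature was higher (HEM13) and 1 lower (TOR1 itself), each 0.0204%. The change was largest in rpl22aΔ for 41 of the 44, in tor1Δ for ALD4 and VPS25, and in can1Δ for CAR2. Among the 28 lower calls the median log2 change was −0.23 in can1Δ, −1.26 in rpl22aΔ and −0.41 in tor1Δ, and among the 16 higher calls it was 0.34, 1.26 and 0.24. An F test of differences between the strains in limma was past the threshold for 893 features (18.2%) and for 35 of the 44. It was 381 without rpl22aΔ replicate 1 and 267 without rpl22aΔ replicate 2.

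No feature passed the strictest question, whether each strain by itself differed from wild type in the same direction. For that test the largest of the 3 strain p-values was taken, and limma with adjustment over all features gave 0 calls (0%), with a smallest adjusted p of 1. At an unadjusted p under 0.05 there were 30 such features (0.612%), and 21 of them are among the 44, 16 lower and 5 higher. The 5 higher were VPS25, YBR013C, IZH2, TPO1 and MRX11. When the 7 libraries were instead treated as 1 group, so that differences between strains counted as spread, limma gave 0 pooled calls.

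The size of the called set moved with single libraries and with the weights. Without wild-type replicate 2 the same-sign calls fell to 11, and without wild-type replicate 3 to 27. They were 21 without can1Δ replicate 2, 21 without rpl22aΔ replicate 1, 29 without rpl22aΔ replicate 2, 16 without tor1Δ replicate 1 and 26 without tor1Δ replicate 2. Without scaling of the deposited RPKM they were 61, of which 42 were higher and 19 lower. The mean of can1Δ and tor1Δ without rpl22aΔ gave 7 calls (5 higher and 2 lower). The 2 lower were CAR2 (adjusted p = 0.0267) and ALD6 (0.0496).

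**Figure D1:**
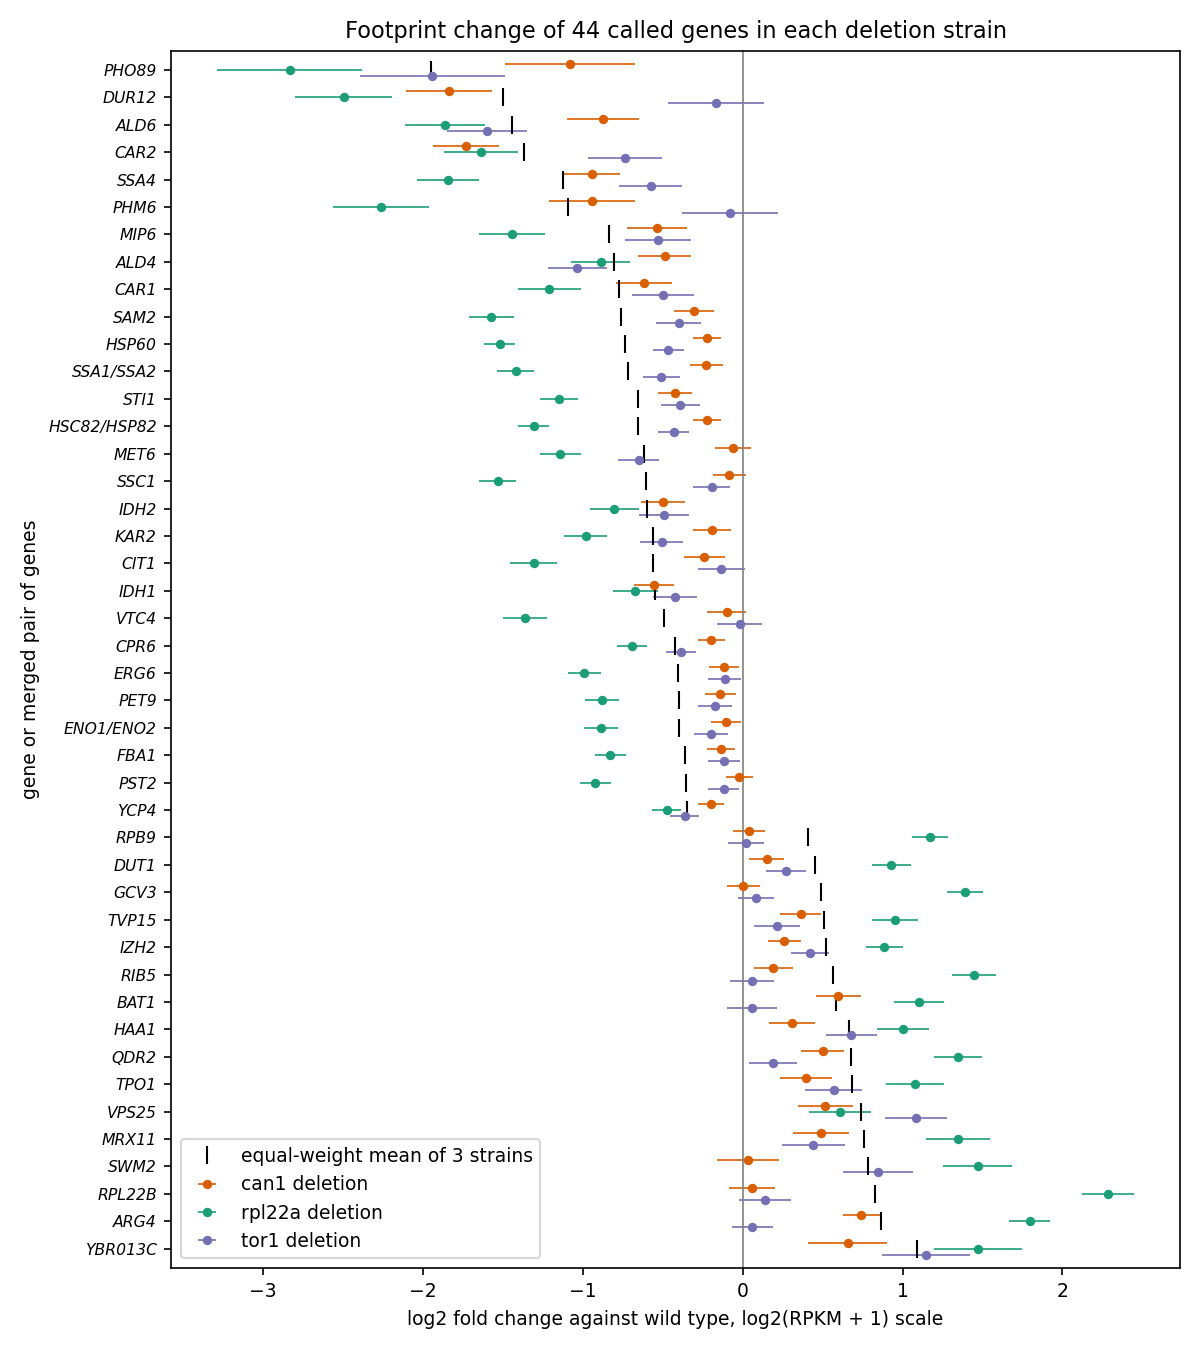
Footprint log2 fold change against wild type (x axis, log2(RPKM + 1) scale) of the 44 genes or merged pairs called in the pooled comparison with 1 sign in all 3 strains (rows). Points are strains with their standard errors and the black tick is the equal-weight mean; rpl22aΔ is farthest from 0 in 41 of 44 rows, while can1Δ and tor1Δ often lie near 0.

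Cytosolic and mitochondrial chaperones were the largest group among the lower calls. Of 20 tested features of a list of Hsf1-controlled chaperones, 7 were called lower with the same sign and 0 higher, and 19 of the 20 had a pooled change below 0. For this and the later lists, the background is all 4897 features without the deleted genes. Of these, 2395 were below 0 and 2502 above, and 28 were same-sign calls lower and 16 higher. Their median was −0.50 pooled, −0.22 in can1Δ, −0.74 in rpl22aΔ and −0.40 in tor1Δ, against 0.01 pooled over all features. The 7 were the Hsp70 pair SSA1/SSA2, SSA4, the Hsp90 pair HSC82/HSP82, STI1, CPR6, HSP60 and SSC1. SSA4, CPR6 and SSC1 are named after their values were seen.

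HSP60, the chaperonin that folds proteins in the mitochondrial matrix (YLR259C, chromosome XII, 663284 to 665002), had 583, 597 and 593 RPKM in wild type. It had 516, 467 and 536 in can1Δ, 215 and 197 in rpl22aΔ, and 428 and 427 in tor1Δ. Every deletion library was below every wild-type library, with can1Δ nearest and rpl22aΔ farthest. The pooled change was −0.74 ± 0.0739 (limma adjusted p = 0.00115), made of −0.23, −1.52 and −0.47 in can1Δ, rpl22aΔ and tor1Δ.

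The pairs of near-identical genes could only be measured together. SSA1/SSA2, the main cytosolic Hsp70 chaperones, stood at 2810, 3014 and 2687 RPKM in wild type, 2154, 2610 and 2521 in can1Δ, 992 and 1129 in rpl22aΔ, and 1943 and 2042 in tor1Δ. The groups did not overlap, and the pooled change was −0.72 ± 0.0873 (limma adjusted p = 0.00325). HSC82/HSP82, the cytosolic Hsp90 chaperones, stood at 1271, 1357 and 1266 in wild type, 1042, 1135 and 1161 in can1Δ, 508 and 541 in rpl22aΔ, and 978 and 947 in tor1Δ. Again all 7 deletion libraries were lower, by −0.65 ± 0.0735 in the mean (limma adjusted p = 0.00218).

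STI1, the co-chaperone that links Hsp70 to Hsp90 (YOR027W, chromosome XV, 381053 to 382822), had 339, 350 and 282 RPKM in wild type, 247, 239 and 235 in can1Δ, 131 and 160 in rpl22aΔ, and 246 and 245 in tor1Δ. The can1Δ and tor1Δ libraries lay side by side just under the lowest wild-type library. Its pooled change was −0.65 ± 0.0915 (limma adjusted p = 0.00586), with −0.42 in can1Δ and −0.39 in tor1Δ, and its call was lost without wild-type replicate 2 (adjusted p = 0.0573). SSA4, a stress-induced Hsp70, was low in all libraries, at 6.60, 5.30 and 5.29 RPKM in wild type, 2.64, 2.74 and 2.11 in can1Δ, 0.578 and 1.21 in rpl22aΔ, and 3.63 and 3.36 in tor1Δ. None of its deletion libraries reached the wild-type range (pooled −1.12 ± 0.149, limma adjusted p = 0.00474). CPR6, a peptidyl-prolyl isomerase that binds Hsp90, stood at −0.42 ± 0.0709 (adjusted p = 0.0180) with 7 of 7 libraries lower, and was not called without wild-type replicate 1 (0.0610) or 2 (0.136). SSC1, the mitochondrial Hsp70 (−0.60 ± 0.0890, adjusted p = 0.00793), had 4 of 7, its can1Δ and tor1Δ values being −0.08 and −0.19.

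Other Hsf1-list members did not pass. HSP104, the disaggregase, stood at −0.84 ± 0.206 (limma adjusted p = 0.0806) and YDJ1, the main cytosolic Hsp40, at −0.33 ± 0.0798 (0.0806). FES1, a nucleotide exchange factor for Hsp70, was the one member above 0 (0.06 ± 0.104, adjusted p = 0.852). KAR2, the Hsp70 of the endoplasmic reticulum, which was not on the list and is named after its values were seen, was also among the lower calls (−0.56 ± 0.102, adjusted p = 0.0283). Its call was lost with any of 7 libraries left out, all but wild-type replicate 1 and can1Δ replicates 1 and 3 (up to 0.180).

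Upstream sequences of 4 chaperones that were lower in 7 of 7 libraries are shown because Hsf1 binds inverted repeats of GAA, and the letters can be read there. The windows ran from 400 to 101 bases before the start codon (300 bases, RefSeq build R64), and the motifs searched were GAANNTTC and TTCNNGAA, each of which reads the same on both strands and may overlap the other. Capitals mark the matches.
STI1 (chrXV:380781-380879, plus strand): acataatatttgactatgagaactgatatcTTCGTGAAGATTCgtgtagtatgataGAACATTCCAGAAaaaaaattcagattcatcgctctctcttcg
HSP60 (chrXII:665170-665242, minus strand): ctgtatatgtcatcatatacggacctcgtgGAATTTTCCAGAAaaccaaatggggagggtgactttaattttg
SSA4 (chrV:364306-364373, plus strand): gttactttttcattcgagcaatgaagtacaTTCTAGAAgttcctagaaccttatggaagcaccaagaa
CPR6 (chrXII:573312-573379, minus strand): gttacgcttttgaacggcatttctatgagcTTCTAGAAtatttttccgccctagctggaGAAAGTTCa
Either motif was found in 1144 of 4807 windows searched (23.8%), in 8 of 25 windows of single genes called lower, in 4 of 16 of those called higher, and in 15 of 18 of the Hsf1 list. That list was drawn from known Hsf1 targets, so its share is no independent evidence, and a match is a description and not a shown binding site.

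**Figure D2:**
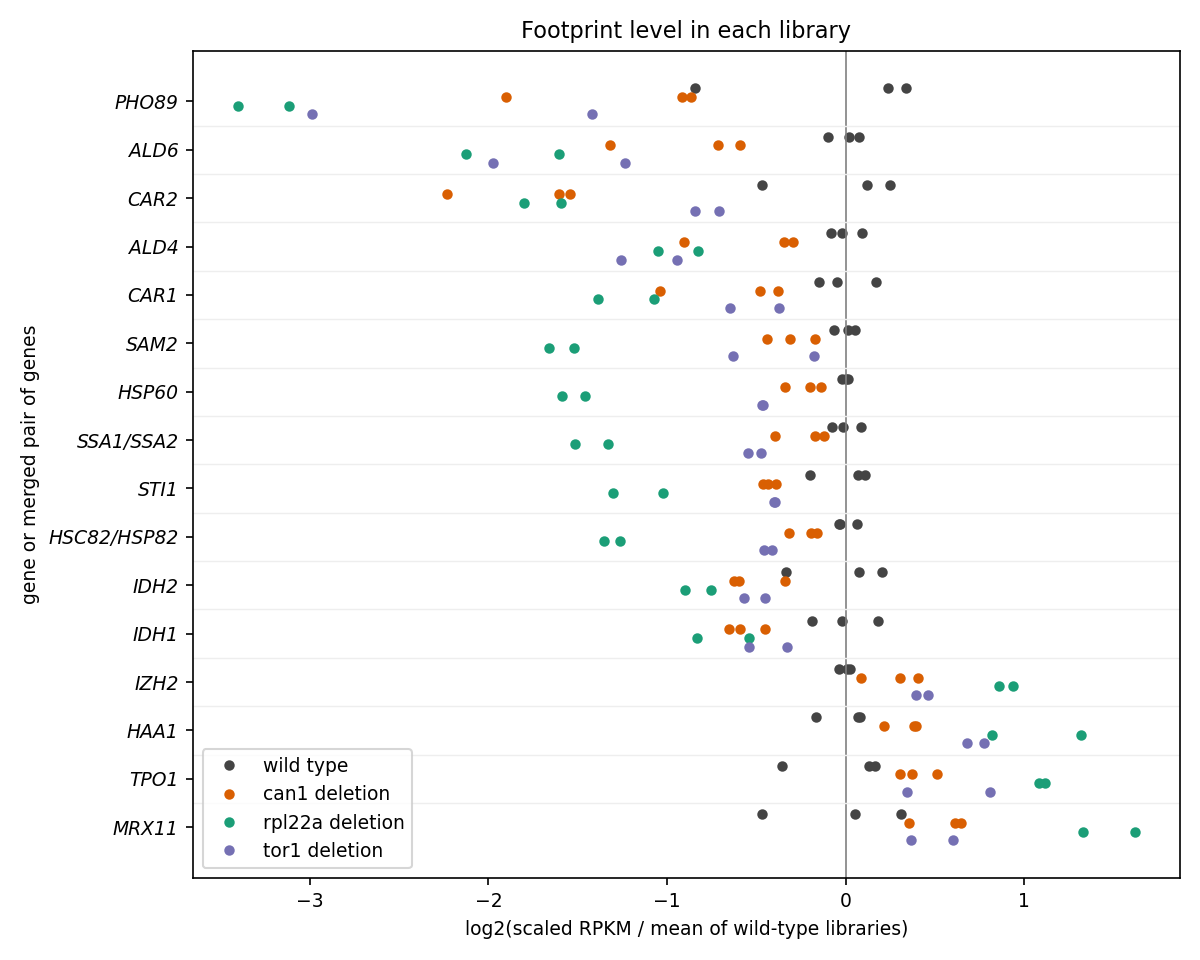
Footprint level of each library relative to the wild-type mean, log2 of the ratio of scaled RPKM (x axis), for 16 genes or merged pairs (rows) called with the same sign, with all 7 deletion libraries beyond all 3 wild-type libraries and at 10 RPKM or more. These are the 12 lower with the largest pooled fold and the 4 higher; CPR6 and YCP4 (−0.35), also lower under these conditions, have smaller folds and are not drawn. Each point is 1 library; the wild-type points of PHO89 and CAR2 are spread widely, those of HSP60 and IZH2 hardly at all.

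Genes that break down arginine were lower as well, and CAR2 was as low in can1Δ as in rpl22aΔ. Of 5 tested features of arginine, urea and proline breakdown, 3 were called lower (CAR1, CAR2 and DUR12), and all 5 were below 0, with a median of −0.77. CAR2, ornithine transaminase (YLR438W, chromosome XII, 1012501 to 1013775), had 86.2, 141 and 130 RPKM in wild type, 25.4, 39.1 and 40.9 in can1Δ, 34.2 and 39.5 in rpl22aΔ, and 73.0 and 66.3 in tor1Δ. The tor1Δ libraries fell between the other deletions and wild type. The pooled change of CAR2 was −1.37 ± 0.176 (limma adjusted p = 0.00416), with −1.73, −1.64 and −0.74 in can1Δ, rpl22aΔ and tor1Δ.

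CAR1, arginase (YPL111W, chromosome XVI, 339944 to 340945), had 107, 134 and 115 RPKM in wild type, 57.8, 91.3 and 85.2 in can1Δ, 45.3 and 56.3 in rpl22aΔ, and 75.7 and 91.7 in tor1Δ. All 7 deletion libraries were lower than wild type, and can1Δ and tor1Δ overlapped (pooled −0.77 ± 0.148, limma adjusted p = 0.0321). With replicate numbers of wild type and can1Δ as a block CAR1 was no longer called (−0.59, adjusted p = 0.0595), and the call was also lost without wild-type replicate 2, wild-type replicate 3, rpl22aΔ replicate 1 or tor1Δ replicate 1 (0.0668 to 0.215). DUR12, urea amidolyase (YBR208C, chromosome II, 636703 to 642210), had 8.93, 17.3 and 8.50 RPKM in wild type, 1.97, 2.54 and 2.58 in can1Δ, 1.12 and 1.12 in rpl22aΔ, and 7.04 and 13.2 in tor1Δ. One tor1Δ library lay inside the wild-type range, so the pooled −1.50 ± 0.228 (limma adjusted p = 0.00940) came with −0.16 in tor1Δ against −1.84 and −2.50. PUT2, of proline breakdown, stood at −0.25 ± 0.0920 (adjusted p = 0.269) and DUR3, a urea transporter, at −0.05 ± 0.221 (0.944).

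Acetaldehyde dehydrogenases and isocitrate dehydrogenase, enzymes of acetate and mitochondrial carbon metabolism, were the next group with all libraries lower. ALD6, the main cytosolic acetaldehyde dehydrogenase (YPL061W, chromosome XVI, 432588 to 434090), had 824, 791 and 729 RPKM in wild type, 314, 476 and 518 in can1Δ, 179 and 257 in rpl22aΔ, and 199 and 332 in tor1Δ. The deletion libraries lay well below wild type in all 3 strains, and those of rpl22aΔ and tor1Δ overlapped. Its pooled change was −1.44 ± 0.191 (limma adjusted p = 0.00550), with −0.87, −1.86 and −1.60 in can1Δ, rpl22aΔ and tor1Δ. ALD6 missed the threshold with the wild type and can1Δ block (−1.32, adjusted p = 0.0520).

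ALD4, its mitochondrial counterpart (YOR374W, chromosome XV, 1039840 to 1041399), had 23.8, 26.9 and 24.8 RPKM in wild type, 13.4, 19.8 and 20.5 in can1Δ, 12.1 and 14.2 in rpl22aΔ, and 10.5 and 13.1 in tor1Δ. It was one of 2 same-sign calls with its largest change in tor1Δ (−1.03, against −0.49 and −0.89). The pooled change was −0.80 ± 0.141 (limma adjusted p = 0.0204), lost with the block of wild type and can1Δ (adjusted p = 0.0599) and without wild-type replicate 2, wild-type replicate 3, rpl22aΔ replicate 1 or tor1Δ replicate 1 (0.0568 to 0.142).

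IDH1 and IDH2, the subunits of mitochondrial isocitrate dehydrogenase, changed by close amounts in each strain. IDH1 (YNL037C, chromosome XIV, 557920 to 559002) had 150, 173 and 134 RPKM in wild type, 96.9, 101 and 112 in can1Δ, 85.8 and 105 in rpl22aΔ, and 105 and 122 in tor1Δ. IDH2 (YOR136W, chromosome XV, 580250 to 581359) had 223, 243 and 168 in wild type, 137, 140 and 167 in can1Δ, 114 and 125 in rpl22aΔ, and 143 and 155 in tor1Δ. The 3 deletion strains overlapped each other for IDH1, and the margin to wild type was narrow for IDH2. Pooled changes were −0.55 ± 0.106 for IDH1 (limma adjusted p = 0.0339) and −0.60 ± 0.118 for IDH2 (0.0371). Neither was called with the wild type and can1Δ block (adjusted p = 0.0790 and 0.0784). Both were lost without wild-type replicate 1, wild-type replicate 2, can1Δ replicate 2, rpl22aΔ replicate 1 or tor1Δ replicate 1, and IDH2 also without the second replicate of rpl22aΔ or tor1Δ (highest adjusted p 0.236 and 0.241). Of 24 tested features of the tricarboxylic acid cycle and its retrograde control, 3 were called lower with the same sign (IDH1, IDH2 and CIT1, citrate synthase) and 0 higher. The list median was −0.14 pooled, −0.0158 in can1Δ, −0.455 in rpl22aΔ and −0.000357 in tor1Δ, and 8 features had a pooled change above 0. The 32 features of the respiratory chain and ATP synthase had 0 calls, with medians of −0.0765, −0.355 and 0.152 in can1Δ, rpl22aΔ and tor1Δ.

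For ALD6, CAR1 and CAR2 the stretch around AGGGG, the core that the stress factors Msn2 and Msn4 bind, is shown with the match in capitals (RefSeq build R64; CAR2 holds it on the other strand, as CCCCT).
ALD6 (chrXVI:432309-432373, plus strand): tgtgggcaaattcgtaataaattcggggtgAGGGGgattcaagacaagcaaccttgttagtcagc
CAR1 (chrXVI:339766-339830, plus strand): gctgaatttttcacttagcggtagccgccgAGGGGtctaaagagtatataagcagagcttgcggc
CAR2 (chrXII:1012278-1012342, plus strand): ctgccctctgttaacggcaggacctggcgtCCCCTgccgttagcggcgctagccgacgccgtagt
AGGGG, searched on both strands, was in 1112 of 4807 windows (23.1%), in 11 of 25 windows of genes called lower and in 3 of 16 of those called higher. GCCGCC, the core of the element bound by the repressor Ume6, stands just before the capitals of CAR1 without overlapping them. Searched on both strands, it was in 260 windows (5.41%). These included 3 of 25 for genes called lower (CAR1, HSP60 and CIT1) and 2 of 16 for those called higher. Of the other motifs searched, TGACTC was in 438 windows (9.11%), 4 of 25 lower and 4 of 16 higher. CACGTG was in 225 (4.68%), 5 of 25 lower and 0 of 16 higher. GATAAG was in 666 (13.9%), 3 of 25 lower and 3 of 16 higher. None of these shares was tested.

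Phosphate, sulfur and sugar genes were called too, most of them mainly through rpl22aΔ. PHO89 was lower in each strain, by −1.08 in can1Δ, −2.83 in rpl22aΔ and −1.94 in tor1Δ. PHO89, a sodium-driven phosphate transporter (YBR296C, chromosome II, 796798 to 798522), had 17.2, 36.5 and 39.2 RPKM in wild type, 8.28, 17.0 and 16.4 in can1Δ, 2.93 and 3.57 in rpl22aΔ, and 3.90 and 11.6 in tor1Δ. Its highest can1Δ library lay just under its lowest wild-type library. The pooled change was −1.95 ± 0.345 (limma adjusted p = 0.0283), the largest of all same-sign calls, and the call was lost with the wild type and can1Δ block (−1.50, adjusted p = 0.0624). It was also lost without wild-type replicate 2 (0.195), wild-type replicate 3 (0.139), rpl22aΔ replicate 1 (0.0575) or rpl22aΔ replicate 2 (0.0524).

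Of 12 tested features of the phosphate regulon, 3 were called lower (PHO89, PHM6 and VTC4) and all 12 were below 0, with medians of −0.14 in can1Δ, −1.43 in rpl22aΔ and −0.17 in tor1Δ. PHM6 (pooled −1.09 ± 0.229, limma adjusted p = 0.0453) and VTC4, a polyphosphate polymerase subunit (−0.49 ± 0.105, 0.0481), stood at −0.08 and −0.02 in tor1Δ. Each of these was lost when any of 8 libraries was left out, all but can1Δ replicate 1 and rpl22aΔ replicate 2 (highest adjusted p 0.196 and 0.222). PHO84, the main phosphate importer, did not pass (−1.01 ± 0.242, adjusted p = 0.0858).

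Among 15 sulfur amino acid genes, SAM2 and MET6 were called lower with the same sign and MET3, ATP sulfurylase, with mixed signs (0.16 in can1Δ). SAM2, which makes S-adenosylmethionine (YDR502C, chromosome IV, 1453310 to 1454464), had 168, 164 and 155 RPKM in wild type, 144, 131 and 120 in can1Δ, 56.5 and 51.3 in rpl22aΔ, and 105 and 143 in tor1Δ. Only the rpl22aΔ libraries stood far from the others (pooled −0.76 ± 0.106, limma adjusted p = 0.00586). MET6, methionine synthase, stood at −0.06 in can1Δ, −1.14 in rpl22aΔ and −0.65 in tor1Δ (pooled −0.62 ± 0.0974, adjusted p = 0.0123), and was lost without wild-type replicate 2 (0.0882).

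Glycolysis and fermentation had 2 same-sign lower calls of 16 features, ENO1/ENO2, enolase (−0.40 ± 0.0813, limma adjusted p = 0.0426), and FBA1, aldolase (−0.36 ± 0.0744, 0.0435). Their changes in can1Δ and tor1Δ were −0.10 and −0.20 for ENO1/ENO2 and −0.14 and −0.12 for FBA1. ERG6, of ergosterol synthesis, was the single call among 25 features of that pathway (−0.41 ± 0.0789, adjusted p = 0.0341). With the wild type and can1Δ block CIT1 (adjusted p = 0.0801), VTC4 (0.0682), ERG6 (0.0653) and ENO1/ENO2 (0.0682) were not called, and with the deposited RPKM unscaled PHM6, CIT1, VTC4, ERG6, ENO1/ENO2 and FBA1 were not. FBA1 was lost when any of the 10 libraries was left out (adjusted p up to 0.270), CIT1 with any but can1Δ replicates 1 and 3 (0.229), and ERG6 and ENO1/ENO2 with any but wild-type replicate 1 and can1Δ replicate 1 (0.241 and 0.252).

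Fewer genes were higher in the main fit, and those with all 7 deletion libraries above wild type were few. The balance turned without wild-type replicate 1 (23 same-sign calls higher and 19 lower) and with the deposited RPKM unscaled (42 and 19). IZH2, a membrane protein of zinc homeostasis (YOL002C, chromosome XV, 323411 to 324364), had 53.0, 55.3 and 54.7 RPKM in wild type, 72.1, 67.1 and 57.7 in can1Δ, 104 and 98.6 in rpl22aΔ, and 75.0 and 71.5 in tor1Δ. The wild-type libraries lay close together, and 1 can1Δ library was only just above them. Its pooled change was 0.52 ± 0.0890 (limma adjusted p = 0.0186), with 0.26, 0.89 and 0.42 in can1Δ, rpl22aΔ and tor1Δ.

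HAA1, the activator of weak-acid resistance genes (YPR008W, chromosome XVI, 573018 to 575102), had 10.7, 9.05 and 10.8 RPKM in wild type, 13.4, 13.3 and 11.8 in can1Δ, 17.9 and 25.3 in rpl22aΔ, and 16.3 and 17.4 in tor1Δ. The order of strains was the same as for IZH2, without overlap with wild type (pooled 0.66 ± 0.122, limma adjusted p = 0.0283). TPO1, a plasma membrane exporter of polyamines (YLL028W, chromosome XII, 84804 to 86564), had 14.7, 21.1 and 20.6 in wild type, 23.2, 24.4 and 26.8 in can1Δ, 40.8 and 39.9 in rpl22aΔ, and 32.9 and 23.9 in tor1Δ. It changed by 0.68 ± 0.137 (limma adjusted p = 0.0391), its lowest can1Δ library being close to the wild-type range.

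MRX11, a mitochondrial protein (YPL041C, chromosome XVI, 475118 to 475741), was low, at 6.58, 5.51 and 3.85 RPKM in wild type, 8.13, 8.31 and 6.80 in can1Δ, 13.4 and 16.3 in rpl22aΔ, and 8.07 and 6.85 in tor1Δ. The gap between its highest wild-type and lowest deletion library was small (pooled 0.76 ± 0.151, limma adjusted p = 0.0371). Each of these 4 calls was lost without wild-type replicate 2, with adjusted p of 0.112 for IZH2, 0.192 for HAA1, 0.112 for TPO1 and 0.153 for MRX11. IZH2 was lost with any of 5 libraries left out (the wild-type replicates, rpl22aΔ replicate 1 and tor1Δ replicate 1) and HAA1 with any of 6 (the wild-type replicates, can1Δ replicate 2 and both of tor1Δ). TPO1 was lost with any of 8 (all but can1Δ replicate 1 and tor1Δ replicate 2) and MRX11 with any of 7 (all but wild-type replicate 1 and can1Δ replicates 1 and 3). HAA1 (0.0790) and MRX11 (0.0747) were also lost with the wild type and can1Δ block.

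VPS25, of the ESCRT-II sorting complex, stood above wild type in each strain (0.52, 0.61 and 1.08 in can1Δ, rpl22aΔ and tor1Δ, pooled 0.74 ± 0.146, limma adjusted p = 0.0371), with 6 of 7 libraries above wild type. It was lost with the wild type and can1Δ block (adjusted p = 0.0837) and with any of 7 libraries left out, all but wild-type replicate 1 and can1Δ replicates 1 and 3 (up to 0.237). YBR013C, of unknown function, had 3.20, 4.98 and 2.78 RPKM in wild type, 4.64, 9.77 and 5.12 in can1Δ, 10.9 and 12.4 in rpl22aΔ, and 9.37 and 8.84 in tor1Δ. One can1Δ library lay within the wild-type range (pooled 1.09 ± 0.208, adjusted p = 0.0321). Its call was lost without wild-type replicate 1 or 3 or any single library of rpl22aΔ or tor1Δ (adjusted p up to 0.149) and, for this short feature of 290 listed bases, with the length trend removed (0.0555).

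Below the threshold, YER034W, of unknown function, stood at 0.39, 0.39 and 0.51 in can1Δ, rpl22aΔ and tor1Δ with 7 of 7 libraries above wild type (pooled 0.43 ± 0.127, limma adjusted p = 0.145). IAT4 (0.56 ± 0.129, adjusted p = 0.0640) and RCN1, a regulator of calcineurin (0.71 ± 0.191, 0.109), also had 7 of 7, and YML003W (1.27 ± 0.302, 0.0751) had 6 of 7 at 0 to 1.92 RPKM in wild type. These are values and not calls.

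Arginine synthesis genes were high in the mean of the strains but not in tor1Δ. All 10 arginine synthesis features had a pooled change above 0, with list medians of 1.65 in can1Δ, 1.74 in rpl22aΔ and −0.27 in tor1Δ. Only ARG4, argininosuccinate lyase, was called with 1 sign in all strains (0.74, 1.79 and 0.06; pooled 0.87 ± 0.0975, limma adjusted p = 0.00218), and 7 others were called with mixed signs. ARG3, ornithine carbamoyltransferase, had 6.77, 3.38 and 2.20 RPKM in wild type, 70.2, 67.9 and 79.3 in can1Δ, 22.1 and 17.8 in rpl22aΔ, and 1.98 and 3.91 in tor1Δ. The can1Δ and rpl22aΔ libraries were all high and the tor1Δ libraries were not above wild type, so the pooled 1.92 ± 0.243 (adjusted p = 0.00416) is a mean over unlike strains (3.94, 2.12 and −0.32).

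ARG1, ARG56 and ARG8, other enzymes of the pathway, were called with pooled changes of 1.58, 1.49 and 1.36 and tor1Δ values of −0.25, −0.42 and −0.37. BAT1, a branched-chain aminotransferase, was called with 1 sign (0.60 in can1Δ, 0.06 in tor1Δ and its highest value in rpl22aΔ; pooled 0.59 ± 0.119, limma adjusted p = 0.0395). It was lost when any of 8 libraries was left out, all but wild-type replicate 3 and can1Δ replicate 1 (adjusted p = 0.0638 to 0.244). RPL22B, the paralog of RPL22A, was called (pooled 0.83 ± 0.122, adjusted p = 0.00793) on a change of 2.29 in rpl22aΔ beside 0.06 and 0.14 in can1Δ and tor1Δ. It was lost without wild-type replicate 2 (adjusted p = 0.0513). LYP1, the lysine permease related to CAN1 (0.05 ± 0.159, adjusted p = 0.931), and TOR2, the paralog of TOR1 (−0.22 ± 0.168, 0.648), did not pass.

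On the lower side, mixed signs were found for RPP2B, a stalk protein of the large ribosomal subunit, HXK2, hexokinase, URA4 and URA1, of pyrimidine synthesis, and MET3. Their pooled changes were −0.71, −0.49, −0.51, −0.45 and −0.67, with rpl22aΔ values between −1.37 (HXK2) and −1.91 (RPP2B). MET3 (adjusted p = 0.0790) and URA4 (0.0678) were not called with the wild type and can1Δ block. With 1 library left out all of them were lost without wild-type replicate 2 (adjusted p up to 0.244) or tor1Δ replicate 1. Except RPP2B they were also lost without wild-type replicate 3 or rpl22aΔ replicate 2, MET3 with any of 8 libraries, HXK2 and URA1 with any of 7 and URA4 with any of 5. RPP2B had 4764, 4220 and 3195 RPKM in wild type, 3740, 3155 and 3078 in can1Δ, 1031 and 1095 in rpl22aΔ, and 3990 and 4350 in tor1Δ. Only rpl22aΔ stood apart from wild type.

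Other lists held few or no calls. Of 24 tested Msn2/Msn4 stress genes limma called 0 in either direction, with 18 of 24 below 0 and medians of 0.10 in can1Δ, −0.62 in rpl22aΔ and −0.18 in tor1Δ. HXK1, a stress-induced hexokinase on that list, stood at −1.12 ± 0.253 (adjusted p = 0.0591). All 15 iron regulon genes were below 0, with medians of −0.28, −0.15 and −0.68 in can1Δ, rpl22aΔ and tor1Δ, and 0 were called. Its members varied among replicates, as in FRE1, the ferric reductase (−1.20 ± 0.556, adjusted p = 0.419). Antioxidant enzymes (23 tested, median −0.16), trehalose and glycogen genes (18, median −0.06), autophagy genes (21, median −0.01) and proteasome subunits (33, median −0.01) had 0 calls each. The medians of autophagy genes (0.07) and proteasome subunits (0.07) were above 0 with the deposited RPKM unscaled.

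The 93 cytosolic ribosomal protein features had a pooled median of 0.02, with RPL22B as the one same-sign call. That median was −0.06 once the trend of each library with gene length was removed, so its direction depends on that correction. It stayed above 0 with the deposited RPKM unscaled (0.10) and with median ratio scaling (0.01). In mRNA the pooled median of these features was −0.31, against 0.01 over all features. Mitochondrial ribosomal proteins (70 tested) also had 0 calls, with a median of 0.04 that became −0.04 without the length trend, and translation factors (31) and ribosome assembly genes (46) had 0 calls with medians of 0.01 and 0.07.

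**Figure D3:**
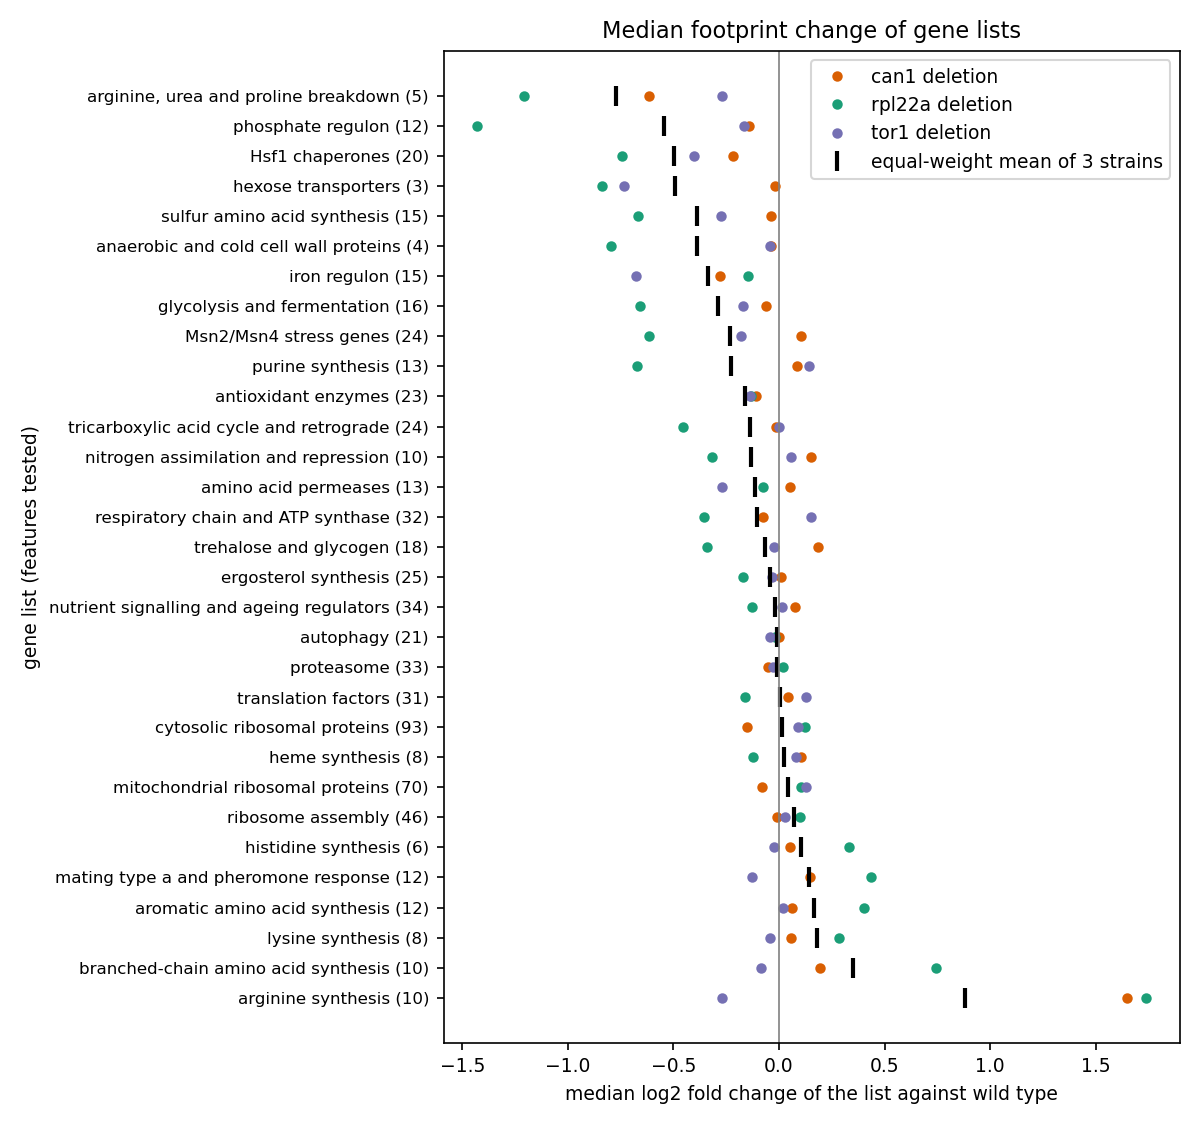
Median footprint log2 fold change of each gene list (rows, with the number of features tested) in the 3 deletion strains (points) and in their equal-weight mean (black tick); x axis, log2 fold change against wild type. Arginine synthesis has medians of 1.65 and 1.74 in can1Δ and rpl22aΔ and −0.27 in tor1Δ. Hsf1 chaperones and arginine breakdown are among several lists with medians below 0 in every strain, as are the phosphate and iron regulons and glycolysis.

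The mRNA libraries, which the footprint comparison did not use, were compared in the same way over 5281 features. Limma called 10 features higher (0.189%) and 20 lower (0.379%), which with the deleted genes set apart makes 28. They were 53 without wild-type replicate 2, 11 without wild-type replicate 1, 6 without can1Δ replicate 1 and 3 without can1Δ replicate 2. These calls rest on 1 library each of rpl22aΔ and tor1Δ, which were assumed to vary like the other groups. All 28 genes called lower in footprints had a pooled mRNA change below 0, with a median of −0.48 beside −0.64 in footprints. Among them the mRNA call was also made for PHO89 (−1.45), ALD6 (−1.25), PHM6 (−1.18), CAR2 (−1.03) and CAR1 (−0.90). For CAR2 and CAR1 the tor1Δ mRNA library lay inside the wild-type range, with changes of −0.14 and −0.24. Their pooled mRNA changes came mainly from can1Δ (−1.98 and −1.09) and rpl22aΔ (−0.97 and −1.37). For PHO89, ALD6 and PHM6 the tor1Δ library lay below the wild-type range. The pooled mRNA changes of the lower genes were not shared by every strain. In tor1Δ the mRNA change was above 0 for DUR12 (0.18), SAM2 (0.06), CIT1 (0.11), VTC4 (0.10), ENO1/ENO2 (0.26) and FBA1 (0.19). CIT1 was above 0 in can1Δ too (0.16). The other lower same-sign calls that the naming rule selects were below 0 in tor1Δ. Of the 16 called higher in footprints 9 had an mRNA change above 0, with a median of 0.16 beside 0.67, and limma called 0 of them in mRNA; over all features the median mRNA change was 0.01.

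ALD6 mRNA had 296 and 141 RPKM in wild type, 71.3 and 78.8 in can1Δ, 87.5 in rpl22aΔ and 95.1 in tor1Δ. All 4 deletion libraries were below both wild-type libraries, which differed from each other (pooled −1.25 ± 0.212). The mRNA errors and p-values come from a spread pooled over all genes, not from that of each gene. For ALD6 they therefore do not reflect the gap between 296 and 141 RPKM in wild type. HSP60 mRNA had 287 and 216 in wild type, 185 and 205 in can1Δ, 109 in rpl22aΔ and 227 in tor1Δ, so tor1Δ lay inside the wild-type range (−0.56 ± 0.219, adjusted p = 0.533). STI1 mRNA had 75.3 and 70.2 in wild type, 49.5 and 68.1 in can1Δ, 40.7 in rpl22aΔ and 53.5 in tor1Δ, all below wild type but not called (−0.53 ± 0.205, adjusted p = 0.499). IZH2 mRNA, at 129 and 109 in wild type, 138 and 98.7 in can1Δ, 133 in rpl22aΔ and 146 in tor1Δ, overlapped between groups (0.15 ± 0.213).

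Translational efficiency, the change of footprints beyond that of mRNA, was tested as an interaction over all 16 libraries. Of 4897 features limma called 0 higher and 0 lower (0%), with 117 at an unadjusted p under 0.05 (2.39%). In pooled mRNA 274 features were at that level (5.19%), and in pooled footprints 617 (12.6%). Values for same-sign calls included −0.89 ± 0.230 for SSA4, 0.81 ± 0.239 for MRX11 and 1.51 ± 0.345 for YBR013C (limma adjusted p = 0.996 for each), and −0.18 ± 0.164 for HSP60 and −0.20 ± 0.375 for ALD6.

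**Figure D4:**
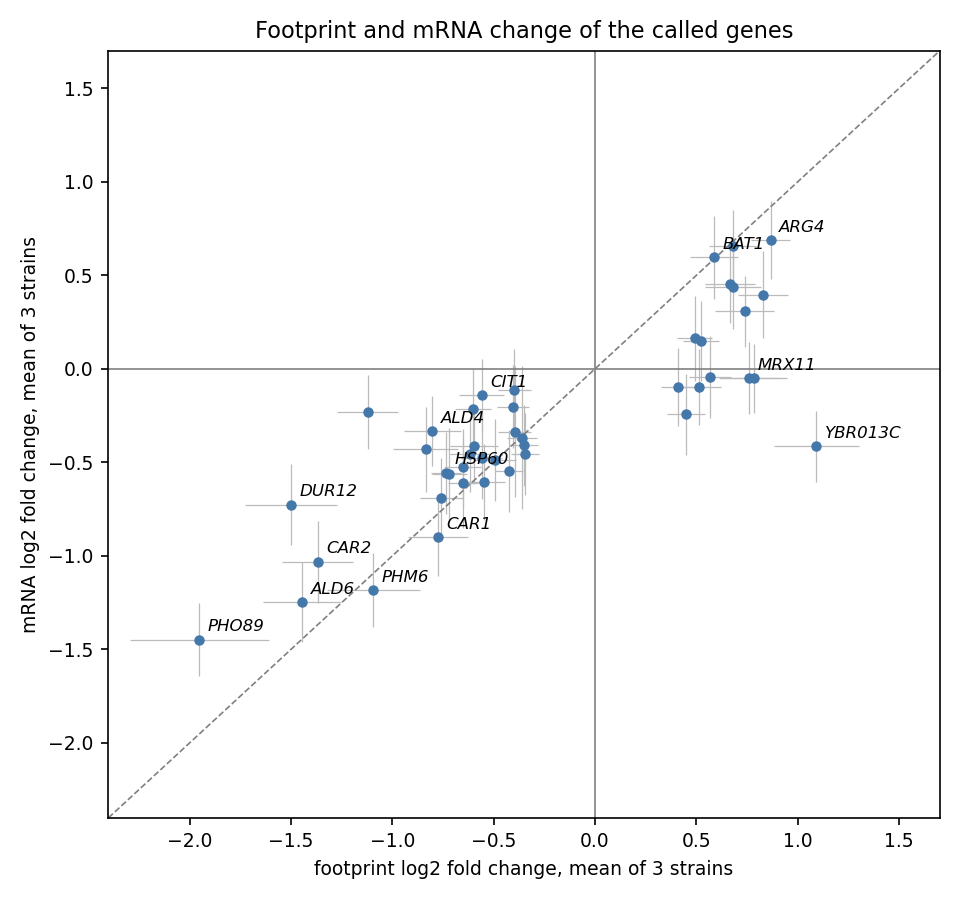
Pooled log2 fold change of mRNA (y axis) against that of footprints (x axis) for the 44 same-sign footprint calls, with standard errors as bars and the line of equal change dashed. All 28 lower genes lie below 0 on both axes, while 9 of the 16 higher genes lie above 0 in mRNA.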

How the data were processed

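The authors deposited RPKM per open reading frame for each library, with its length, per the file headers. Reads had been aligned with Bowtie 1.1.2 to genome build R64, per the submitters' processing notes; the treatment of reads matching several genes is not stated in these sources. Library totals were recovered from the even steps of low RPKM values (tolerance 0.05 reads). The rpl22aΔ mRNA library, mRNA replicate 2 of wild type and its footprint replicate 1 behaved as means of 2 runs, so their read numbers are approximate. The share of reads in listed features was 76.4 to 81.7% for footprints and 54.4 to 61.4% for mRNA.

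RPKM were scaled by trimmed means of log ratios (30% trimmed on fold, 5% on level) and fitted as log2(RPKM + 1) with limma 3.58.1 (statmod 1.5.0, R 4.3.3), with trended and robust moderation, as 4 strain means over 10 footprint libraries (6 residual degrees of freedom). Features needed the level of 10 reads of the median library in at least 2 footprint libraries or 1 mRNA library, and at least 15 reads in all. The 116 merged features, such as SSA1/SSA2, cannot be split into their genes. The mRNA fit had 2 residual degrees of freedom, and its variance was pooled fully over genes. The efficiency fit took both kinds of library as independent, though the labels describe aliquots of lysate used for both and do not say which libraries share one. The footprint fit was run on simulated counts in which changed genes had the same fold in every deletion strain. That simulation held no differences between strains, so it cannot show how the fit behaves where strains differ.

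The members, the gene lists and the naming rule were chosen with earlier results of these data known, and the GCCGCC and Hsf1 motifs were added after the files were seen. The rule names the deleted genes with their close relatives. It adds up to 12 calls a direction with the largest pooled fold, 1 sign, 7 of 7 libraries beyond wild type and at least 10 RPKM. It then adds up to 3 same-sign calls a list with the smallest p, up to 5 mixed-sign calls a direction, and, where few are named, the 8 with the smallest p in their weakest strain. Genes given outside this rule are SSA4, CPR6, SSC1, KAR2, YCP4 and HEM13. So are the list members HSP104, YDJ1, FES1, PUT2, DUR3, PHO84, HXK1 and FRE1, which were not called. ALP1, a relative of CAN1, had 0 to 2 footprint reads per library and was not tested.

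Pairing by replicate number was checked with the deviations of 3623 genes from their strain means. Wild-type and can1Δ libraries of the same number correlated at 0.662, 0.243 and 0.435, so the numbers were taken to pair them, from the data and not from the labels. Wild type and rpl22aΔ correlated at −0.336 and −0.115, wild type and tor1Δ at −0.0166 and 0.0251, and these were not taken as pairs. Libraries of unlike number also correlated. The second rpl22aΔ library did so with replicate 1 of wild type (0.336) and of can1Δ (0.322). With 2 libraries in a strain the deviations are equal and opposite, so these values only mirror those of the first rpl22aΔ library (−0.336 and −0.322). Replicate 3 of wild type and replicate 2 of can1Δ stood at 0.222, and their other unlike numbers at −0.511 to 0.0272. The main fit had no block for replicate numbers. Alternatives were other scalings, filters, pseudocounts and weights, a block for replicate numbers, each strain left out and each library left out.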

Additional observations from a re-analysis of the deposited data

Results flagged for a closer look

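Each of these named same-sign calls differed between the 3 deletion strains in limma's F test, so that 1 pooled value does not describe all strains; the values are adjusted p for the strain difference. The study's groups hold 2 or 3 libraries, too few to look for single outlying libraries. Among lower genes the values were 4.23e-05 for HSP60, 0.000188 for SSA1/SSA2, 0.000109 for HSC82/HSP82 and 0.0036 for STI1, all lowest in rpl22aΔ. Genes of sulfur and phosphate metabolism gave 0.000364 for SAM2, 0.000858 for MET6, 0.000233 for VTC4 and 0.0038 for PHM6. Carbon and sterol enzymes gave 0.0376 for ALD6, 0.00106 for CIT1, 0.0018 for ENO1/ENO2, 0.0016 for FBA1 and 0.00051 for ERG6. CAR2 (0.0251) and DUR12 (0.0021) were lower in can1Δ and rpl22aΔ than in tor1Δ. Among higher genes the values were 0.0106 for IZH2, 0.0299 for HAA1 and 0.0186 for MRX11, highest in rpl22aΔ, 0.0057 for BAT1 and 5.39e-05 for ARG4, near 0 in tor1Δ, and 3.75e-05 for RPL22B, which stood apart in rpl22aΔ.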

How the results depend on the processing

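Against 62 pooled calls, of which 44 had 1 sign, 0 and 0 remained with the 7 deletion libraries as 1 group, 27 and 18 with equal weight per library, 28 and 19 with untrended, non-robust moderation, and 103 and 73 (35 shared with the 44) with the length trend removed. Means of 2 strains gave 232 pooled calls for rpl22aΔ and tor1Δ, 191 for can1Δ and rpl22aΔ and 7 for can1Δ and tor1Δ. Leaving out 1 library gave 18 to 67 pooled calls and 11 to 46 with 1 sign. The test of all 3 strains gave 0 calls under each alternative run. Strain differences ranged from 267 (without rpl22aΔ replicate 2) to 1235 when 1 library was left out. The 28 mRNA calls apart from the deleted genes became 13 with the deposited RPKM and 13 without a filter, and leaving out 1 library gave 3 to 53; translational efficiency gave 0 to 1. With the replicate block for wild type and can1Δ there were 48 pooled calls, 33 with 1 sign (21 shared with the 44), and with the block over all strains 47 and 33 (25 shared). Of the 29 named same-sign calls, 13 were lost with the block of wild type and can1Δ, as given beside the genes, and 11 with the block over all strains, whose numbers were not taken as pairs; among these PHM6 (adjusted p = 0.0834), FBA1 (0.0616) and TPO1 (0.0564) were lost in the latter alone. RPL22A, a deleted gene, was not called with the first (−3.01, 0.104). Of the 29, 7 (DUR12, CAR2, SAM2, HSP60, SSA1/SSA2, HSC82/HSP82 and ARG4) kept direction and call under every alternative run except the 1-group fit and the mean of can1Δ and tor1Δ; CAR2 kept it under the latter too. The sign reversed for CAN1 in the mean of rpl22aΔ and tor1Δ (0.18), for URA1 in the mean of can1Δ and tor1Δ (0.0196), and for LYP1 in the mean of rpl22aΔ and tor1Δ (−0.0433) and with libraries left out (−0.14 to 0.19). For the means of 2 strains and the 1-group fit the change follows from their construction; elsewhere the cause was not tested. Depth limits genes of a few RPKM such as SSA4, MRX11 and YBR013C, and groups of 2 libraries limit the rpl22aΔ and tor1Δ estimates.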
